A study of Homo sapiens with 2 samples.

Results

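The microRNAs (miRNAs) miR-126, miR-132, miR-210, miR-218 and miR-296, all with described roles in blood vessels, were followed in a profile of CL1-5 cells, an invasive human lung adenocarcinoma line. They were taken by assay name from a quantitative PCR card, where miR-126 stands on 2 assay numbers (4373269 and 4378064), which gave 6 assays of 365 for miRNAs. The profile held 1 RNA sample of CL1-5 cells overexpressing ANGPTL1, a secreted angiopoietin-like protein, and 1 of CL1-5 cells carrying the empty plasmid pcDNA3.1, the vector control. Both were stable lines selected with the antibiotic G418. Whether each was 1 clone or a pool is not given in the sources used here, and neither is the cell passage. With 1 sample per group no difference below carries an error or a test, and each compares these RNA samples.

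A miRNA is a short RNA cut from a hairpin precursor, and its bases 2 to 8, the seed, pair with target mRNAs and lower their output. miR-126 lies in EGFL7, a gene known from endothelial cells, and acts there by repressing SPRED1 and PIK3R2, which restrain signalling from vascular endothelial growth factor (VEGF). miR-132 is induced by the transcription factor CREB and represses RASA1, a brake on RAS, in endothelium. miR-210 is the miRNA most widely induced by hypoxia-inducible factors and represses EFNA3, an ephrin ligand. miR-296 represses HGS, which sends growth factor receptors for degradation. miR-218 is encoded in the genes of the guidance ligands SLIT2 and SLIT3 and represses their receptor ROBO1.

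The sequences of the mature RNAs that these names stand for are given to show what the assays could tell apart, with the seed in capitals, 5′ to 3′, from RefSeq on GRCh38.p14. All 5 names matched an entry. Older names without an arm are taken here, as background, for the arm printed. For miR-126 the name does not say which assay reads which arm of the hairpin, so both are shown.
miR-126-5p: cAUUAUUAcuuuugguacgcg
miR-126-3p: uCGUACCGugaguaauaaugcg
miR-132-3p: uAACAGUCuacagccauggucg
miR-212-3p: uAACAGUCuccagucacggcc
miR-210-3p: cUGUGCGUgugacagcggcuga
miR-296-5p: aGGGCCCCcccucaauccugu
miR-218-5p: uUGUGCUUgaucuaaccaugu

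The members do not form a sequence family. The 11 mature names of their 6 hairpin genes held 11 distinct seeds, and among 2370 human mature names only miR-132-3p shared its seed, with miR-212-3p, printed for that reason. The first 9 bases of miR-132-3p and miR-212-3p were the same, and their hairpins lay 263 bases apart on chromosome 17. miR-212 was not analysed here. The 2 arms of miR-126 held a complementary run of 10 bases, as arms of 1 hairpin do. Base composition differed widely, with a GC content of 38.1% for miR-218-5p and 66.7% for miR-296-5p.

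The members also lay on separate chromosomes. The miR-126 hairpin is at chr9:136670602-136670686 on the plus strand, within the span of EGFL7. The miR-210 hairpin is at chr11:568089-568198 on the minus strand, within the long noncoding RNA gene MIR210HG. miR-218 has a pair of hairpins with the same mature sequence, at chr4:20528275-20528384 on the plus strand within SLIT2 and at chr5:168768146-168768255 on the minus strand within SLIT3, and 1 assay reads the product of both. The miR-132 hairpin (chr17:2049908-2050008, minus strand) and the miR-296 hairpin (chr20:58817615-58817694, minus strand) lay in no other annotated gene span. miR-298, whose hairpin is 532 bases from that of miR-296, was not analysed here. The annotation used gives gene spans only, so exons and introns were not looked up.

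The files give the average threshold cycle (Ct), the cycle of the PCR when fluorescence passes a fixed level, so that a lower Ct means more template. Subtracting the Ct of RNU48, a small nucleolar RNA used as the endogenous control, gives delta Ct. A log2 ratio here is delta Ct in vector control cells minus delta Ct in ANGPTL1 cells, and is positive where the miRNA was higher in ANGPTL1 cells relative to RNU48. An assay counted as detected below cycle 35, and a value of 40, where the PCR ended, counted as no amplification. RNU48 itself crossed threshold at 21.21 in ANGPTL1 cells and 20.79 in vector control cells, a difference of 0.42 cycles, by which every log2 ratio is lower if the reference is left out. Of the 365 assays 158 were detected in ANGPTL1 cells and 157 in vector control cells, with 145 (39.7%) detected in both. Their median log2 ratio was -0.01 and their quartiles were -0.41 and 0.33. As for the labelled cell type, miR-200c and miR-203, miRNAs of epithelial cells, were detected in both samples, while the other 6 assays of the epithelial marker list were detected in neither. miR-200c was 3.53-fold higher in ANGPTL1 cells, at cycle 30.77 against 32.16 in vector control cells, farther from 0 than any member detected in both samples, and miR-203 had a log2 ratio of -0.30. Of 5 blood assays 1 was detected in both samples, miR-486, at cycle 32.75 in ANGPTL1 cells and 28.75 in vector control cells. Another, miR-142-3p, was detected in vector control cells alone, at 37.19 in ANGPTL1 cells and 34.51 in vector control cells. The part of these markers in the results below was not tested. Of 5 fibroblast and smooth muscle assays 1 was detected in both samples, miR-199a (4378068), at cycle 34.95 in ANGPTL1 cells and 33.83 in vector control cells. Among the others, miR-143, miR-145 and miR-199a (4373272) stood at cycle 40 in both. miR-214 was past the limit in both, at 36.32 in ANGPTL1 cells and 35.77 in vector control cells. Of 4 muscle assays 1 was detected in both samples, miR-133b.

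Of the 6 member assays 5 (83.3%) were detected in both samples, against 39.7% of all assays, and miR-218 passed the limit in the ANGPTL1 sample only. None of the 5 was as much as 2-fold higher or lower in ANGPTL1 cells, where 12.4% of the 145 assays were (7.59% higher and 4.83% lower). At a size of 1.5-fold, 1 of the 5 was past it, miR-296 on the lower side, where 35.9% of all were past it in either direction and 19.3% on the lower side. The 5 log2 ratios ran between -0.60 and 0.33, with a median of -0.29 and a mean of -0.22. A total of 4 of the 5 were below 0, where 50.3% of all 145 were. Without the reference RNA all 5 were below 0, as were 79.3% of the 145, and their median was -0.71.

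**Figure D1:**
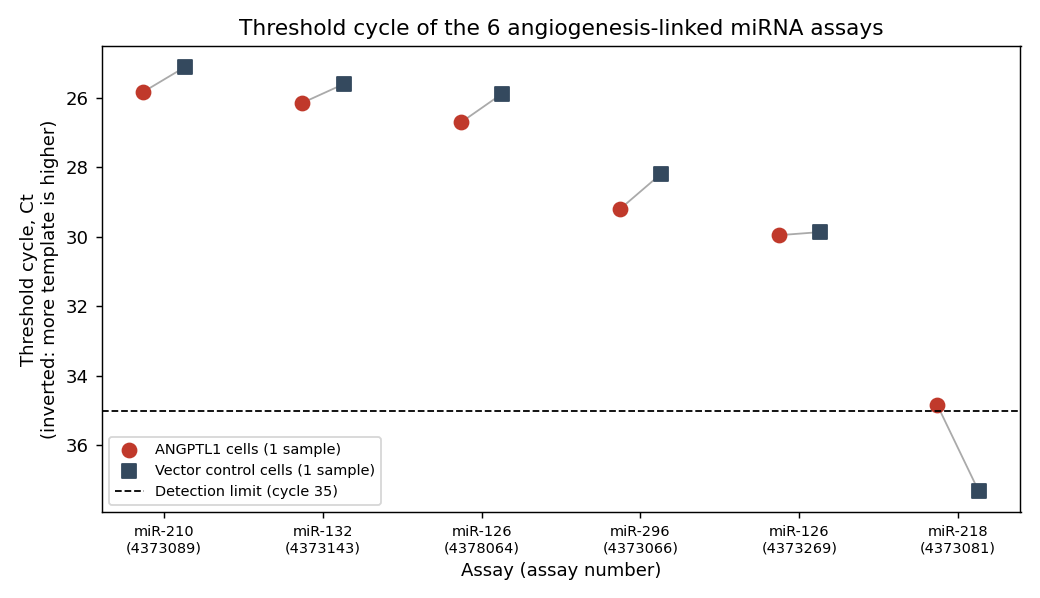
Threshold cycle (Ct, inverted axis, so that more template is higher) of each of the 6 assays, with a circle for the ANGPTL1 sample, a square for the vector control sample and a dashed line at cycle 35. The 5 assays detected in both samples sit between cycles 25.82 and 29.95 in ANGPTL1 cells and between 25.11 and 29.86 in vector control cells. Each of the 5 is later in ANGPTL1 cells, from 0.09 cycles for miR-126 (4373269) up to 1.02 cycles for miR-296. miR-218 crosses the limit in ANGPTL1 cells alone.

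The order of delta Ct was the same in both samples. miR-210 came first, followed by miR-132, miR-126 (4378064), miR-296, miR-126 (4373269) and miR-218. The first 3 lay close together, with steps in delta Ct of 0.32 and 0.56 cycles in ANGPTL1 cells and 0.49 and 0.27 cycles in vector control cells, and no replicate shows whether such steps exceed the spread of the measurement. Assays can differ in the efficiency of reverse transcription and PCR, so this order is one of cycles, not of molecules. Ranked by Ct among all 365 assays, miR-210 was in place 27 in ANGPTL1 cells and 21 in vector control cells, miR-132 in 30 and 26, and miR-126 (4378064) in 37 and 33. These 3 were therefore early among the 158 and 157 assays detected.

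miR-210, the hypoxia-induced member, crossed threshold at cycle 25.82 in ANGPTL1 cells and 25.11 in vector control cells. Its delta Ct was 4.61 in ANGPTL1 cells and 4.32 in vector control cells, a level of 4.09% and 5.01% of RNU48 if each cycle doubles the product. The log2 ratio of -0.29 makes it 1.22-fold lower in ANGPTL1 cells, number 47 of 145 counted from the lowest ratio. In bulk RNA, fewer cells that make a miRNA and less of it per cell cannot be told apart. Among the 23 other assays with a mean Ct within 1 cycle of it, 11 had a log2 ratio at least as far from 0. The assays nearest to it in delta Ct over the 2 samples were miR-27a and miR-30b, at log2 ratios of 0.18 and 0.04. Here and below, nearness in delta Ct in both samples itself limits how far such ratios can differ from the member's.

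miR-132, the CREB-induced miRNA, crossed threshold at cycle 26.14 in ANGPTL1 cells and 25.60 in vector control cells. Its delta Ct was 4.93 in ANGPTL1 cells and 4.81 in vector control cells, or 3.28% and 3.56% of RNU48. It had the smallest difference among the 5, with a log2 ratio of -0.12 (1.09-fold lower), and 18 of the 26 other assays within 1 cycle of it were at least as far from 0. miR-17-5p and miR-28 were nearest to it in delta Ct, with log2 ratios of 0.01 and 0.14.

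miR-296, the miRNA that represses HGS, crossed threshold at cycle 29.20 in ANGPTL1 cells and 28.18 in vector control cells. Its delta Ct was 7.99 in ANGPTL1 cells and 7.39 in vector control cells, or 0.393% and 0.596% of RNU48. It lay farthest from 0 among the 5, with a log2 ratio of -0.60, or 1.52-fold lower in ANGPTL1 cells. Of the 24 other assays within 1 cycle of it none was lower, their log2 ratios running between -0.58 and 1.88, and 5 were at least as far from 0. Over all cycles it was number 24 of 145 counted from the lowest ratio. Without the reference RNA its log2 ratio was -1.02, which then passes 2-fold, as did 20.0% of the 145 assays on the lower side. Its nearest assays in delta Ct were miR-362 and miR-324-5p, with log2 ratios of -0.49 and -0.20. At so small a distance in delta Ct their ratios had to be below 0, so they add no separate comparison.

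**Figure D2:**
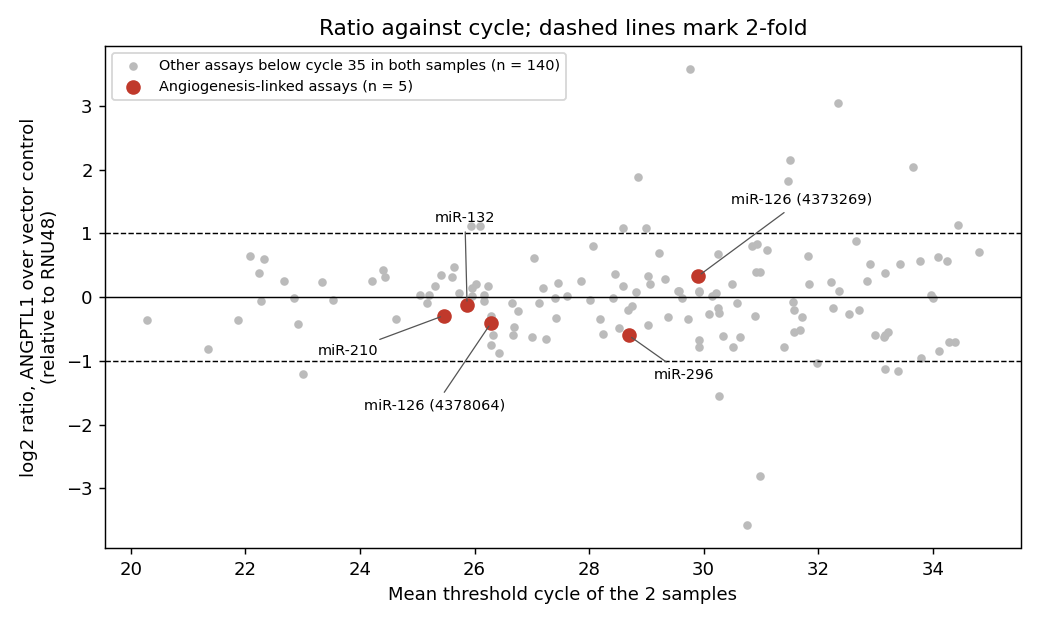
Log2 ratio of ANGPTL1 over vector control cells relative to RNU48 (vertical) against the mean threshold cycle of the 2 samples (horizontal) for the 145 assays detected in both, 1 point per assay, with dashed lines at 2-fold. The 5 members (larger points) lie between -0.60 and 0.33, all inside the dashed lines, and miR-296 lies at the lower edge of the assays around its own cycle.

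The assays named miR-126 read RNA of an endothelial hairpin in a carcinoma line, and both were detected in both samples. Assay 4378064 crossed threshold at cycle 26.70 in ANGPTL1 cells and 25.87 in vector control cells, and its delta Ct was 5.49 in ANGPTL1 cells and 5.08 in vector control cells. Assay 4373269 was later, at cycle 29.95 in ANGPTL1 cells and 29.86 in vector control cells, with a delta Ct of 8.74 in ANGPTL1 cells and 9.07 in vector control cells. The earlier assay was thus at 2.23% of RNU48 in ANGPTL1 cells and 2.96% in vector control cells, and the later one at 0.234% and 0.186%. Relative to RNU48 they went opposite ways, 1.33-fold lower for 4378064 (log2 ratio -0.41) and 1.26-fold higher for 4373269 (0.33). Without the reference RNA both were below 0, at -0.83 and -0.09, so the direction of 4373269 depends on the reference. Nearest in delta Ct were miR-140 and miR-186 for 4378064, at log2 ratios of -0.29 and -0.59, and miR-27b and miR-148a for 4373269, at 0.09 and 0.08. Within 1 cycle, 11 of 28 other assays were at least as far from 0 as 4378064, and 14 of 31 as far as 4373269.

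The distance between the 2 miR-126 assays does not depend on the reference. They stood 3.25 cycles apart in ANGPTL1 cells and 3.99 cycles apart in vector control cells, a ratio of 9.51 in ANGPTL1 cells and 15.9 in vector control cells if both double at each cycle. Since the assays may differ in efficiency, neither ratio is a count of arms. The change between the samples, 0.74 cycles, compares each assay with itself. This change is 1.67-fold only if both assays double at each cycle. By name, 26 miRNAs in the files had a pair of assays, 14 on a shared name with 2 assay numbers, 11 with names ending in -3p and -5p, and miR-425 with and without an arm. Arms of 1 hairpin that carry different names were not paired. In 5 pairs other than miR-126 both assays were detected in both samples. Their 2 log2 ratios differed by 0.91 for miR-425, 0.38 for miR-30a, 0.21 for miR-17, 0.21 for miR-324 and 0.12 for miR-9. The difference of 0.74 for miR-126 thus lay within the range of the other pairs, below miR-425 and above the other 4. Ratios on opposite sides of 0 were also seen in 3 of the 5 other pairs. These were miR-425, at 0.33 and -0.58, and miR-17 and miR-324, each at -0.20 and 0.01. The miR-17 and miR-324 pairs thus crossed 0 by only 0.01. This comparison has no replicate either, and the arm behind each miR-126 assay is not settled by its name.

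**Figure D3:**
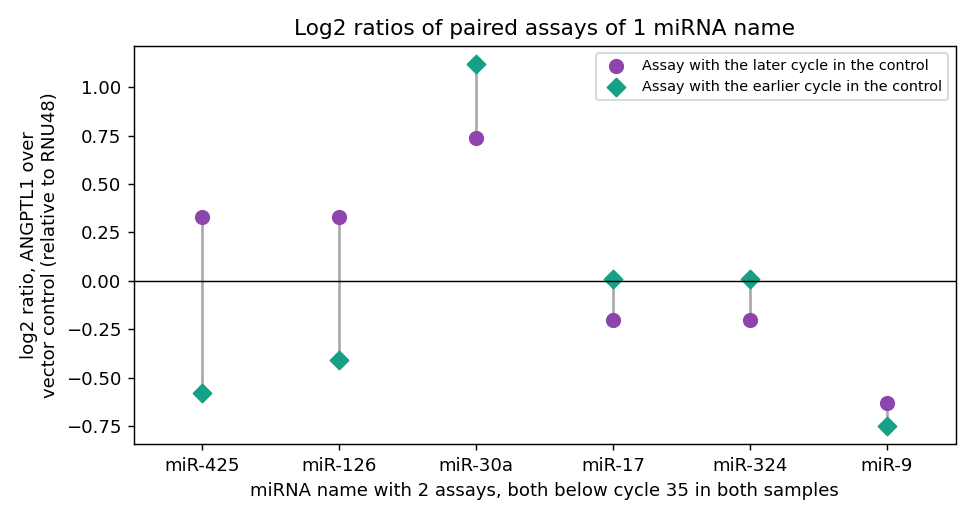
Log2 ratios of ANGPTL1 over vector control cells relative to RNU48 (vertical) for the 6 miRNA names with 2 assays detected in both samples, where a circle is the assay with the later cycle in vector control cells and a diamond the other. The miR-126 pair is 0.74 apart and spans 0, the miR-425 pair is 0.91 apart and also spans 0, and the other 4 pairs are between 0.12 and 0.38 apart.

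miR-218, the miRNA encoded in SLIT2 and SLIT3, had the latest cycles among the members. It crossed threshold at cycle 34.85 in ANGPTL1 cells, 0.15 cycles before the detection limit, and at 37.32 in vector control cells, 2.32 cycles past it. With the control cycle set to the limit, it was at least 1.48-fold higher in ANGPTL1 cells (log2 ratio at least 0.57). Without the reference RNA the bound was 0.15. Both bounds take the ANGPTL1 cycle as measured, with no replicate to show its spread. The authors' deposited table gives a fold change of 7.41, which uses the cycle of 37.32 as measured. A total of 13 of the 365 assays (3.56%) were detected in ANGPTL1 cells alone, and of these only miR-517c was later in ANGPTL1 cells, at cycle 34.91. In the other direction, 12 assays were detected in vector control cells alone. Within 1 cycle of the limit lay 5 of the 13 and 8 of the 12. The size of the miR-218 difference was not measured at this depth. A limit of cycle 32 would place it among the undetected.

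Other miRNAs described in angiogenesis gave a list of 17, chosen, like the lists below, with earlier results of these data known. All 17 were detected in both samples, against 39.7% of all 365 assays. The median log2 ratio of the 17 was 0.18, beside -0.29 for the 5 members and -0.01 for all 145 assays. Without the reference RNA the median of the 17 was -0.24. Of the 17, 1 was at least 2-fold higher and 0 were at least 2-fold lower, where 7.59% and 4.83% of all 145 assays were. The list had 11 above 0 and 6 below, where 50.3% of the 145 were below 0. miR-130a, which represses the antiangiogenic homeobox genes GAX and HOXA5, was 2.16-fold higher in ANGPTL1 cells, and let-7f was 1.60-fold higher. At the other end stood miR-424, at a log2 ratio of -0.51, and miR-378, at -0.44. miR-221 and miR-222, which repress the receptor KIT in endothelium and come from 1 cluster, were at 0.25 and -0.36. Without the reference RNA only let-7f and miR-130a stayed above 0, at 0.26 and 0.69, where 79.3% of the 145 assays were below 0.

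A list of other hypoxia-linked miRNAs, set beside miR-210, had 8 of 11 assays detected in both samples, against 39.7% of all 365 assays. These 8 had a median log2 ratio of 0.22 (-0.21 without the reference RNA). Of the 8, 7 were above 0 and 1 below, where 50.3% of all 145 assays were below 0. miR-210 itself was at -0.29. The highest were miR-26b at 0.47 and miR-23b at 0.40, and the lowest were miR-107 at -1.04, past 2-fold, and miR-103 at 0.06. Without the reference RNA only miR-26b was above 0, at 0.05, where 79.3% of the 145 assays were below 0. miR-181b was detected in ANGPTL1 cells alone, at cycle 31.95 against 35.77 in vector control cells, and both miR-373 assays stood at cycle 40 in both samples. Of 6 further miRNAs from the SLIT, VEGF or endothelial literature, 4 were detected in both samples, against 39.7% of all 365 assays. These 4 had a median log2 ratio of 0.73 (0.31 without the reference RNA). miR-155, known from immune and endothelial activation, was highest at 3.58, miR-10a followed at 0.80, miR-100 was at 0.65 and miR-34a at -0.17. miR-31 was at cycle 40 in both samples, and miR-10b at 36.04 in ANGPTL1 cells and 36.54 in vector control cells.

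**Figure D4:**
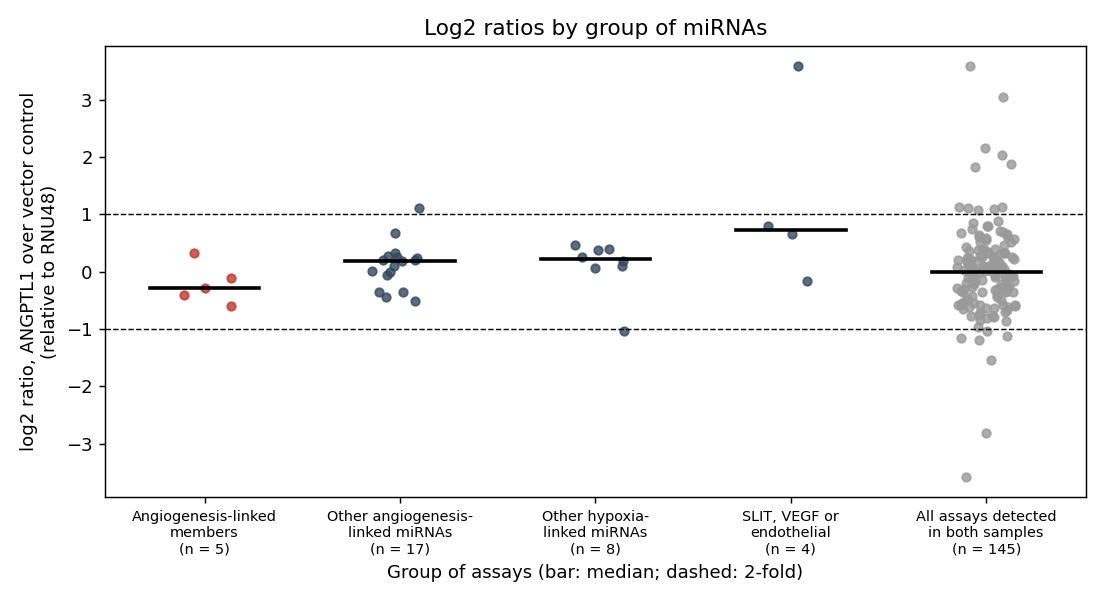
Log2 ratio of ANGPTL1 over vector control cells relative to RNU48 (vertical) for assays detected in both samples, 1 point per assay, with a bar at the median of each group and dashed lines at 2-fold. The median is -0.29 for the 5 members, 0.18 for 17 other angiogenesis-linked miRNAs, 0.22 for 8 hypoxia-linked miRNAs, 0.73 for 4 miRNAs of the SLIT, VEGF or endothelial literature and -0.01 for all 145 assays.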

How the data were processed

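Per the labels' protocols, multiplexed reverse transcription started from 500 ng of total RNA, and 40 cycles of PCR were run on the TaqMan Low Density Array named Human MicroRNA Panel, version 1.0. Per the file headers, the deposited tables hold the average Ct of each assay, delta Ct against RNU48, and the authors' fold change, a ratio of ANGPTL1 over control computed from delta Ct. The sources used here do not name the number of wells averaged, the threshold or the software. Deposited delta Ct differed by at most 0.01 from the deposited cycles, and the deposited fold change by at most 1.8e-07 on the log2 scale from delta Ct. In addition 2 columns of relative levels were not used.

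Log2 ratios were computed with Python 3.11.15, pandas 2.3.3 and numpy 2.4.6. The arithmetic for assays detected in both samples was checked on simulated data without noise. In those data no assay was detected in ANGPTL1 cells alone, so the bound used for miR-218 was not checked. Ratios were counted where both cycles were below 35. An assay detected in 1 sample alone had its later cycle set to 35, which gives a bound. Groups came from the treatment label. Named were all members, for each detected member the 2 assays nearest in delta Ct (Euclidean distance over both samples), the 2 highest and 2 lowest of each list, and assays sharing a seed or lying within 10 kb. Other miRNAs named, among them those of the paired assays, miR-221, miR-222, miR-181b, miR-373, miR-31, miR-10b, miR-486, miR-142-3p, miR-200c, miR-203, miR-143, miR-145 and miR-517c, were chosen after their values were seen. So were miR-199a, miR-214 and miR-133b. Members and lists were chosen with earlier results of these data known. The alternatives were other references, sources of the ratio, detection limits and fold sizes.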

Additional observations from a re-analysis of the deposited data

How the results depend on the processing

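The 5 ratios of members detected in both samples stayed within 0.01 of the values above with cycles recomputed, with all assays centred on their median and with the authors' deposited table, which by construction test little, and did not change with detection limits of 32, 38 or none. Without normalization every ratio was lower by 0.42, the members' median was -0.71, miR-126 (4373269) turned to -0.09, and 1 member was at least 2-fold lower. At 1.5-fold 1 member was lower. With a limit of 38 or none miR-218 entered at 2.89, as in the authors' deposited table, so 1 member was at least 2-fold higher and the median over 6 was -0.21; with a limit of 32 it had no value. The 0.74 between the miR-126 assays was the same under all 7 alternatives for reference, source and limit. None of these could change it beyond rounding. The reference cancels, the sources rest on the same cycles, and both assays were earlier than every limit. Over all assays, 11 were at least 2-fold higher and 7 lower; the counts were 6 and 29 without normalization, 6 and 2 below cycle 32, 23 and 11 below 38, 29 and 12 with no limit, 24 and 28 at 1.5-fold, and 4 and 2 at 4-fold. No paired analysis was possible because the groups hold 1 sample each, and no replicate could be left out. Late cycles limit miR-218, and 1 sample per group limits every comparison.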
